A study of Mus musculus with 15 samples.

Results

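The miRNAs described here are 5 mature products of the Mir219a-1, Mir219a-2 and Mir338 hairpins: mmu-miR-219a-5p, mmu-miR-219a-2-3p, mmu-miR-219a-1-3p, mmu-miR-338-3p and mmu-miR-338-5p (the prefix, which marks mouse miRNAs, is mostly left out below). They were taken by name from the 683 distinct mouse miRNA names of a small RNA sequencing study of brain haemorrhage, and all 5 passed the filter on low counts. Of the 15 mice, 5 had ICH (intracerebral haemorrhage, in which blood escapes into the brain) and received BYHWD, the herbal mixture Buyang Huanwu decoction, at 6.19 g/kg by daily gavage for 14 days. Another 5 had ICH and were gavaged with distilled water, and 5 sham mice were gavaged with water. All were labelled wild type, and the basal ganglia of the operated side were taken on day 14 after perfusion with saline. The extraction protocol speaks of pelleted exosomes, so it cannot be said from the labels whether tissue RNA or vesicle RNA was sequenced. As the labels describe separate animals, the spread between libraries includes that between mice.

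Oligodendrocytes wrap axons in myelin, and their precursors must stop dividing before they do so. MiR-219 and miR-338 are known in the mouse as miRNAs that rise at this step and repress mRNAs that keep the precursors immature, among them those for the growth factor receptor PDGFRA and the transcription factors SOX6 and HES5. Loss of miR-219 in mice impairs myelination, and miR-338 adds to its effect. In bulk libraries such as these, fewer cells of a type and less RNA per cell cannot be told apart.

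The mature sequences are shown because miRNAs from 1 hairpin can differ in their seeds, the bases 2 to 8 through which a miRNA finds its targets. Each sequence is from RefSeq (GRCm38.p6), 5′ to 3′, with the seed in capitals. The table held 4 of the 5 members, and miR-219a-2-3p is named only.
miR-219a-5p: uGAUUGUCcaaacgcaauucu
miR-219a-1-3p: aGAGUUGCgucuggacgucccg
miR-338-3p: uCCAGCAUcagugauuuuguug
miR-338-5p: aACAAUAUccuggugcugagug
No 2 of these 4 had the same seed, and no other mature miRNA in the RefSeq table carried any of them. MiR-219a-5p is 21 bases long and the other 3 are 22 bases long. The GC content of miR-219a-1-3p was 63.6%, against 38.1 to 45.5% in the other 3.

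MiR-219a-5p is encoded at 2 loci, Mir219a-1 and Mir219a-2, whose hairpins differ outside the mature sequence. In the next lines the mature miRNA is in capitals and 4 bases of the hairpin on either side are in lower case.
Mir219a-1: cuccUGAUUGUCCAAACGCAAUUCUcgag
Mir219a-2: ccacUGAUUGUCCAAACGCAAUUCUugua
Mir219a-1 spans 34024983 to 34025092 of chromosome 17 on the minus strand (GRCm38) and overlaps an exon of the noncoding gene Gm26940. Mir219a-2 spans 29845631 to 29845727 of chromosome 2 on the minus strand, with no overlapping gene other than miRNA genes in the annotation used. Mir338 spans 120014765 to 120014862 of chromosome 11 on the minus strand, within an intron of Aatk, a kinase gene of the nervous system on the same strand. On the opposite strand of the same place lies Mir3065, whose miR-3065-5p overlaps miR-338-3p over 21 bases. The antisense products were nearly unread, with 11 counts of miR-3065-5p and 1 count of miR-3065-3p summed over all 15 libraries.

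Names and counts stood 1 row apart in the deposited tables, and every value here uses counts moved back to their names. The move matters for these members. The counts assigned to miR-219a-2-3p, with a mean of 69795 per library, stand beside miR-15b-3p as printed, while the counts printed beside miR-219a-2-3p have a mean of 322. Those of miR-338-3p stand beside miR-181a-2-3p, those of miR-338-5p beside miR-409-3p and those of miR-219a-1-3p beside miR-496a-3p. MiR-219a-5p occupied 2 rows with unequal counts, the higher of which was 2.67 to 3.58 times the lower in each library. The higher row is used, and no source says which row belongs to which hairpin. None of the 5 members had counts within 1% of those of another name in every library.

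After repeated rows were dropped, the total count was 4684611 to 9860236 per library. Levels below are CPM, counts scaled to a common library size by the TMM method. The tissue label was checked against brain miRNAs, and miR-9-5p (102075 CPM) and the neuronal miR-124-3p (4884 CPM) were abundant over all 15 libraries. Sham 4 and sham 5 stood apart from the rest: 91 and 72 of 652 tested miRNAs were over 2-fold away from their median over all libraries, against 2 to 48 in the other 13 libraries. The comparisons of the members with sham are given with and without them.

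The members differed widely in level, and their order was the same in all 15 libraries. MiR-219a-2-3p, the 3′ arm of the Mir219a-2 hairpin, led with a mean of 9844 ± 4852 CPM (SD, n = 15), place 25 of 652 tested miRNAs. Over the 13 libraries other than sham 4 and sham 5 it had 8081 ± 1272 CPM (n = 13) and place 30. MiR-338-5p followed at 847 ± 142 CPM, place 104, and miR-338-3p at 555 ± 116 CPM, place 124. MiR-219a-5p stood at 169 ± 50.8 CPM, place 199, and miR-219a-1-3p at 4.10 ± 1.01 CPM, place 510. The places of these 4 moved by at most 3 without sham 4 and sham 5, to 101, 121, 200 and 507. No neighbours in this order changed places in any library, the miR-338 arms included. MiR-219a-1-3p had 12 to 42 counts per library, and its CPM carries the counting error of so few reads. These levels compare read numbers of miRNAs of nearly equal length and are not corrected for how well each sequence is captured in a library.

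**Figure D1:**
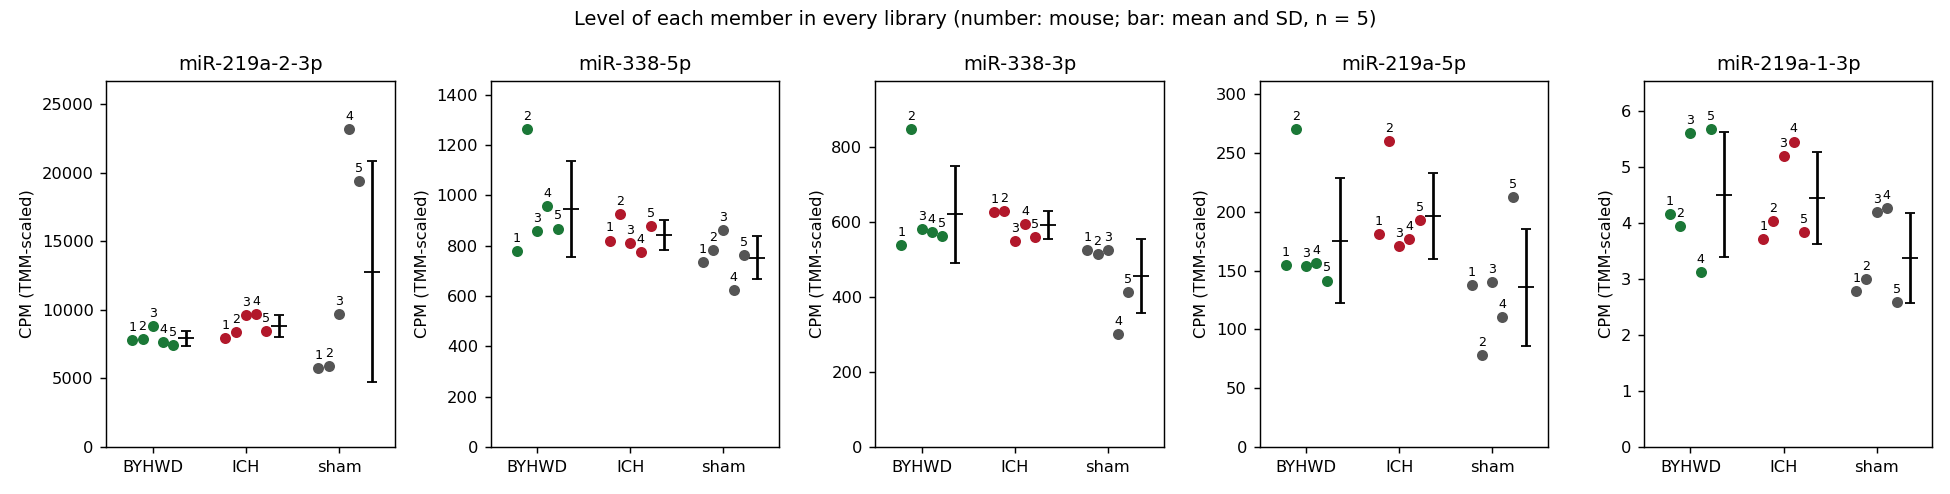
CPM (TMM-scaled) of each member in BYHWD, ICH and sham libraries, 1 numbered point per mouse, with the mean and SD of each group (n = 5) as a bar. For miR-338-3p all BYHWD and ICH points lie above all sham points with this scaling, though not with total counts, while for miR-219a-2-3p sham 4 and sham 5 lie far above every other library.

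Mmu-miR-338-3p, the arm best known for its role in oligodendrocyte maturation, had 537, 848, 580, 573 and 562 CPM in BYHWD mice 1 to 5 and 625, 629, 547, 594 and 560 CPM in ICH mice. Sham mice had 524, 513, 526, 301 and 412 CPM. With TMM scaling every library from a mouse with a haemorrhage was above every sham library, though not with total counts, and sham 1, 2 and 3 lay between 513 and 526 CPM. The sham group had 2 low libraries, sham 4 and sham 5, which are those that stood apart.

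For ICH against sham, miR-338-3p averaged 591 ± 36.9 CPM in ICH and 455 ± 98.5 CPM in sham (SD, n = 5 each). This was a log2 fold change of 0.38 (SE 0.16, 95% interval 0.04 to 0.72, edgeR adjusted p = 0.178), which did not pass. For BYHWD against sham it was 0.45 (SE 0.16, 95% interval 0.11 to 0.79, edgeR adjusted p = 0.125), with a BYHWD mean of 620 ± 129 CPM. Both comparisons use the same sham libraries. Without sham 4 and sham 5 the values were 0.17 (SE 0.14) and 0.24 (SE 0.14). Groups that did not overlap in CPM were found for 3.99% of tested miRNAs in ICH against sham and for 3.83% in BYHWD against sham. The separation also depended on the scaling. With total counts only, ICH libraries had 541 to 667 CPM and BYHWD libraries 528 to 940 CPM, against 201 to 626 CPM in sham, and both comparisons overlapped. With RLE and upper-quartile scaling, ICH stayed clear of sham and BYHWD did not.

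MiR-338-5p, the other arm of the same hairpin, had 780, 1265, 860, 956 and 868 CPM in BYHWD mice and 821, 926, 809, 775 and 880 CPM in ICH mice. Sham mice had 735, 782, 862, 622 and 764 CPM. BYHWD 2 was the highest library, as for miR-338-3p, sham 4 was the lowest, and the groups overlapped. ICH differed from sham by 0.16 on the log2 scale (SE 0.13, edgeR adjusted p = 0.519), and BYHWD did by 0.33 (SE 0.13, edgeR adjusted p = 0.151). With sham 4 and sham 5 left out these were 0.08 (SE 0.14) and 0.25 (SE 0.15). The value for BYHWD was 0.20 without BYHWD 2, and that for ICH was 0.10 without ICH 2 and 0.10 without sham 4.

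MiR-219a-2-3p had 7827, 7833, 8823, 7679 and 7396 CPM in BYHWD mice and 7968, 8385, 9629, 9721 and 8468 CPM in ICH mice. Sham mice had 5756, 5890, 9678, 23192 and 19415 CPM. Mice with a haemorrhage lay in a narrow band, with a coefficient of variation of 6.82% in BYHWD and 8.96% in ICH. Sham mice spread on both sides of it, with 62.9%. Sham 1 and sham 2 were below every other library, and sham 4 and sham 5 were above every other one. The TMM factors of sham 4 and sham 5 were 0.667 and 0.721, against 0.954 to 1.195 elsewhere, which raises their CPM. With total counts only, the highest sham library had 15475 CPM, against at most 9522 CPM in ICH and 9040 CPM in BYHWD.

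The direction for this most abundant member therefore depended on which sham libraries were used. With all libraries, ICH differed from sham by -0.53 on the log2 scale (SE 0.31, edgeR adjusted p = 0.356), and BYHWD did by -0.69 (SE 0.31, edgeR adjusted p = 0.214). With sham 4 and sham 5 left out it was 0.30 (SE 0.16, edgeR adjusted p = 0.33) and 0.14 (SE 0.16, edgeR adjusted p = 0.697). With all libraries but total counts only, the differences from sham were -0.23 in ICH and -0.36 in BYHWD (SE 0.20 each). Neither direction passed, and no direction is given for miR-219a-2-3p.

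MiR-219a-5p, whose target mRNAs in oligodendrocyte precursors include the one for PDGFRA, had 155, 271, 154, 157 and 141 CPM in BYHWD mice and 181, 260, 171, 176 and 193 CPM in ICH mice. Sham mice had 137, 78.1, 140, 111 and 212.2 CPM. Sham 5 was the only sham library inside the ICH range, and BYHWD 2 and ICH 2 were the highest of all. With total counts only, no sham library lay in the ICH range (168 to 276 CPM in ICH, against 73.9 to 164 CPM in sham). The share of all miRNAs without overlap was not computed for total counts, so this separation is not read as particular to miR-219a-5p. With that scaling 60.4% of all miRNAs had a log2 fold change above 0 for ICH against sham. The log2 fold change for ICH against sham was 0.53 (SE 0.24, 95% interval 0.03 to 1.04, edgeR adjusted p = 0.205). Leaving out sham 4 and sham 5 gave 0.72 (SE 0.24, edgeR adjusted p = 0.156). For BYHWD against sham it was 0.37 (SE 0.24, edgeR adjusted p = 0.402), and 0.56 without sham 4 and sham 5. Single libraries moved it as well, to 0.16 without BYHWD 2, 0.23 without sham 2 and 0.59 without sham 5. They also moved the value for ICH against sham, to 0.39 without ICH 2, 0.39 without sham 2 and 0.77 without sham 5. The lower of the 2 rows gave 0.48 for ICH against sham and 0.41 for BYHWD against sham.

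MiR-219a-1-3p, the 3′ arm of the other miR-219a hairpin, had 3.11 to 5.68 CPM in BYHWD mice with a median of 4.16, and 3.71 to 5.45 CPM in ICH mice with a median of 4.02. In sham mice it had 2.58 to 4.27 CPM with a median of 3.00. The groups overlapped. ICH differed from sham by 0.38 on the log2 scale (SE 0.22, edgeR adjusted p = 0.333), and BYHWD by 0.39 (SE 0.22, edgeR adjusted p = 0.319). These values were 0.38 and 0.39 without sham 4 and sham 5 as well, but BYHWD against sham was 0.26 without BYHWD 3 and 0.25 without BYHWD 5.

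Counted together, no member was called changed by edgeR (adjusted p under 0.05 over all 652 tested miRNAs) in any comparison. Over all miRNAs, 0.767% were called for ICH against sham, 2.3% for BYHWD against sham and 0% for BYHWD against ICH. At an unadjusted p under 0.05 there were 2 of 5 members for ICH against sham (miR-219a-5p and miR-338-3p), where 21% of all tested miRNAs passed. For BYHWD against sham there were 3 of 5 (miR-219a-2-3p, miR-338-3p and miR-338-5p), where 21.2% passed. For BYHWD against ICH no member passed, where 4.75% did. DESeq2 and limma-voom with quality weights called no member either. The members' median log2 fold change was 0.38 for ICH against sham and 0.37 for BYHWD against sham, with 4 of 5 above 0 in both, beside medians over all tested miRNAs of -0.02 and 0.02 and shares above 0 of 47.7% and 51.7%. Leaving out sham 4 and sham 5, the members had medians of 0.30 and 0.25 and 5 of 5 above 0 in both, beside 46.1% and 49.1% of all miRNAs. Some members share a hairpin and both comparisons share the sham libraries, so these counts are not of separate observations and were not tested. Without scaling factors the median over all miRNAs was 0.07 and 0.15 in the same comparisons, and miR-338-3p had 0.54 for BYHWD against sham.

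**Figure D2:**
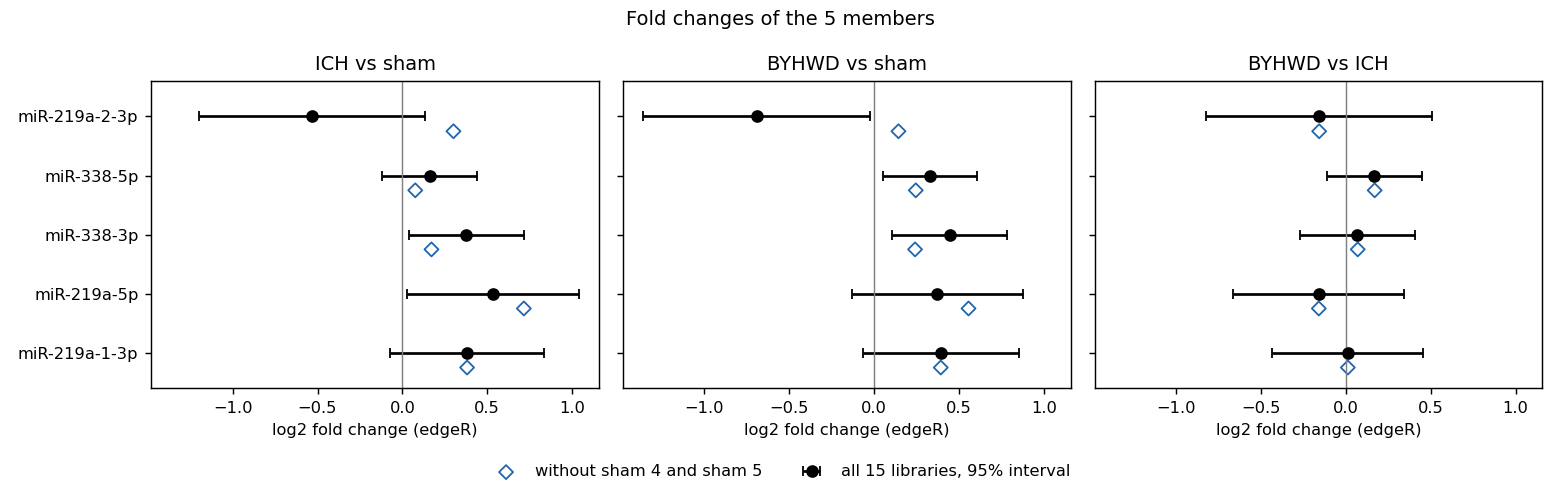
Log2 fold changes of the 5 members from edgeR with 95% intervals (filled circles, all 15 libraries) and the values without sham 4 and sham 5 (open diamonds). MiR-219a-2-3p lies below 0 in both comparisons with sham (-0.53 and -0.69) and above 0 without the 2 sham libraries (0.30 and 0.14), while BYHWD against ICH has values of -0.16 to 0.17.

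The comparison of BYHWD with ICH asks whether the decoction altered these miRNAs in mice with a haemorrhage. None of the 5 members passed. MiR-338-3p averaged 620 ± 129 CPM in BYHWD and 591 ± 36.9 CPM in ICH, a log2 difference of 0.07 (95% interval -0.27 to 0.41). MiR-338-5p averaged 946 ± 189 and 842 ± 60.0 CPM in BYHWD and ICH, a difference of 0.17 (-0.11 to 0.45). For both arms the BYHWD mean was raised by BYHWD 2, and without it the differences were -0.07 and 0.04. MiR-219a-2-3p averaged 7911 ± 540 CPM in BYHWD and 8834 ± 791 CPM in ICH, a difference of -0.16 (-0.82 to 0.51). MiR-219a-5p averaged 175 ± 53.5 and 196 ± 36.7 CPM in BYHWD and ICH, a difference of -0.16 (-0.66 to 0.34). MiR-219a-1-3p had 0.01 (-0.43 to 0.46). The edgeR adjusted p was between 0.942 and 0.996 for these members. An increase of 1 on the log2 scale is outside the interval of every member, while a fall of 0.5 on the log2 scale is outside the interval for the miR-338 arms and miR-219a-1-3p and inside it for the other 2.

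The ratio of 2 miRNAs within a library needs no scaling between libraries, and 4 such ratios were compared between groups with exact two-sided permutation tests of the mean log2 ratio (5 against 5, smallest possible p = 0.00794), adjusted over all 12 tests. Of the miR-338 arms, miR-338-5p was read more often than miR-338-3p in every library. There were 1.45 to 1.67 reads of miR-338-5p for each read of miR-338-3p in BYHWD libraries and 1.30 to 1.57 in ICH libraries, against 1.40 to 2.07 in sham. The highest ratios were those of sham 4 (2.07) and sham 5 (1.85). The mean log2 ratio was 0.51 ± 0.12 in ICH and 0.75 ± 0.22 in sham, a difference of -0.24 (exact p = 0.0794, adjusted p = 0.317). In BYHWD it was 0.61 ± 0.08, which differed from sham by -0.14 (exact p = 0.246, adjusted p = 0.422) and from ICH by 0.10 (exact p = 0.19, adjusted p = 0.422). Without sham 4 and sham 5 the differences from sham were -0.093 in ICH (exact p = 0.339) and 0.0077 in BYHWD (exact p = 0.911).

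MiR-219a-2-3p was read 28.9 to 57.4 times for each read of miR-219a-5p in BYHWD, 32.2 to 56.3 times in ICH and, in sham, 41.9 to 209 times. The miR-219a-5p reads may come from either hairpin, so this is not an arm ratio of Mir219a-2 alone. Ratios to miR-219a-5p used only the higher of its 2 rows, and were not computed with the lower row or with the sum. Of the sham libraries, 4 lay above every library from a mouse with a haemorrhage, at 75.4, 69.0, 209 and 91.5 in sham 2 to 5, and sham 1 lay inside their range. The mean log2 ratio was 5.51 ± 0.33 in ICH and 6.39 ± 0.85 in sham, a difference of -0.89 (exact p = 0.0476, adjusted p = 0.317). In BYHWD it was 5.54 ± 0.39, a difference from sham of -0.86 (exact p = 0.0556, adjusted p = 0.317). Without sham 1 the differences were -1.14 and -1.11 (exact p = 0.00794, adjusted p = 0.0476 for both). Sham 1 was the only sham library inside that range, so leaving it out was bound to separate the groups fully. Both tests also share the same sham libraries, and these p-values are not taken as a pass. Without sham 4 and sham 5 the differences were -0.41 and -0.38 (exact p = 0.179 and 0.268, adjusted p = 0.75 for both). With 3 sham libraries so few orderings remain that this ratio could not pass on its own after adjustment. No conclusion is drawn from that setting. BYHWD and ICH differed by 0.03 (exact p = 0.857, adjusted p = 0.935).

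The ratio of miR-219a-2-3p to miR-338-3p sets the most abundant member against the better known arm of miR-338. It was 9.24 to 15.2 in BYHWD and 12.7 to 17.6 in ICH, against 11.5, 18.4, 77.0 and 47.2 in sham 2 to 5 and a slightly lower value in sham 1 than in sham 2. Sham 4 and sham 5 were above all others, with miR-219a-2-3p high and miR-338-3p low in both. The log2 ratio differed from sham by -0.70 in ICH (exact p = 0.349) and by -0.91 in BYHWD (exact p = 0.19), and by -0.21 between BYHWD and ICH (exact p = 0.23), with adjusted p of 0.422 to 0.524. Without sham 4 and sham 5 the differences from sham were 0.17 in ICH (exact p = 0.446) and -0.034 in BYHWD (exact p = 0.857), so the direction for ICH turned. MiR-219a-1-3p had 0.0147 to 0.0408 reads per read of miR-219a-5p in BYHWD, 0.0157 to 0.0313 in ICH and 0.0127 to 0.0394 in sham, and none of its 3 comparisons passed (exact p = 0.579 to 1). With sham 4 and sham 5 left out, the log2 ratio differed from sham by -0.35 in ICH (exact p = 0.375) and by -0.16 in BYHWD (exact p = 0.679).

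**Figure D3:**
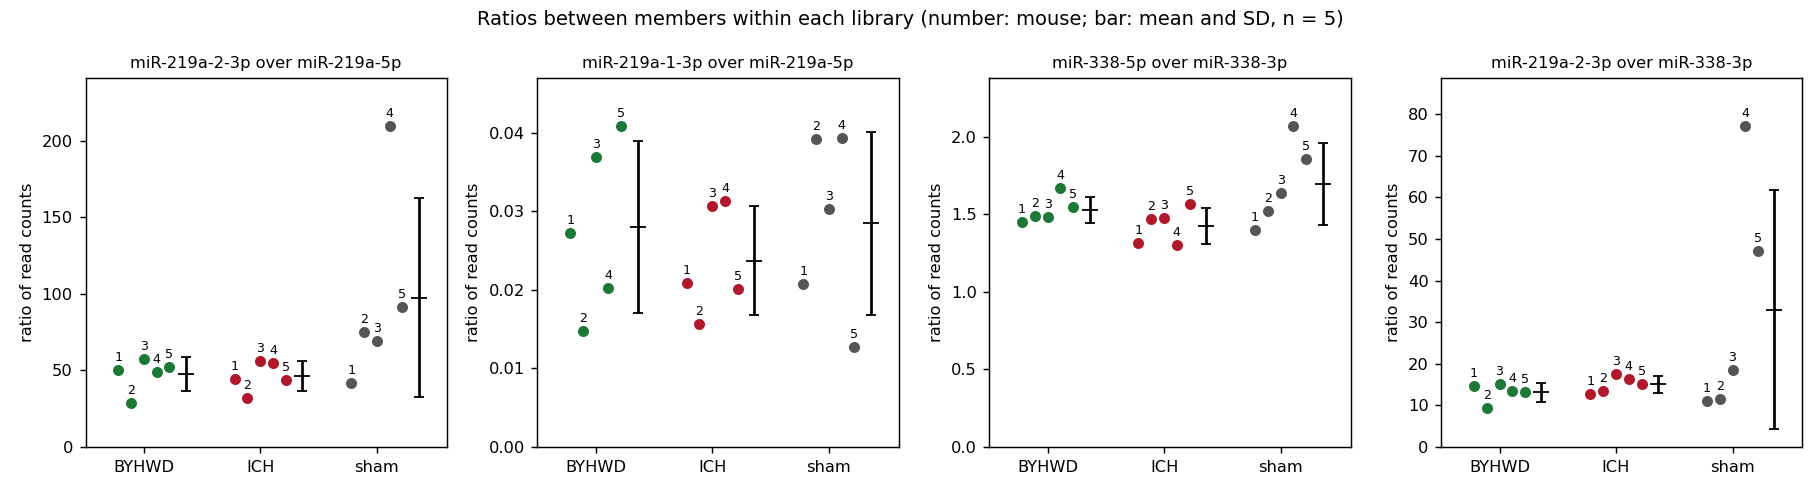
Ratios of read counts between members within each library, 1 numbered point per mouse, with the group mean and SD (n = 5). Sham 4 and sham 5 have the highest ratios of miR-219a-2-3p to miR-338-3p (77.0 and 47.2) and of miR-338-5p to miR-338-3p (2.07 and 1.85).

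**Figure D4:**
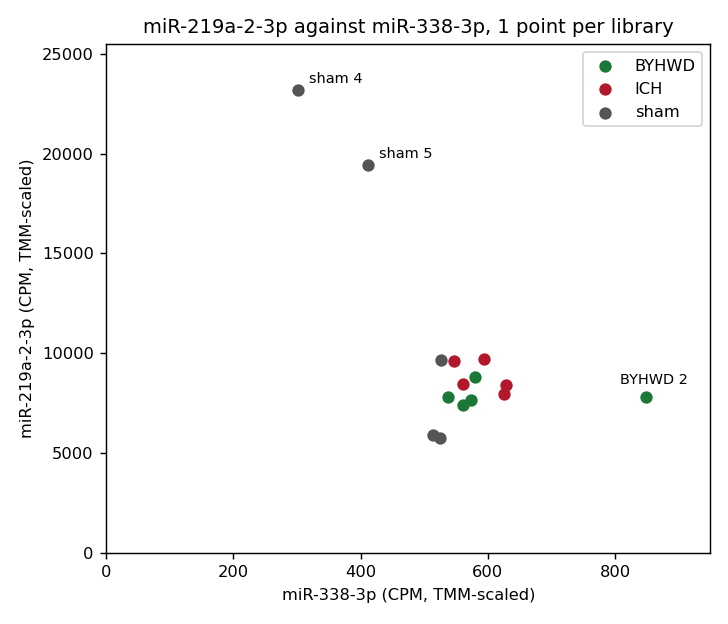
MiR-219a-2-3p against miR-338-3p in CPM (TMM-scaled), 1 point per library coloured by group. Sham 4 and sham 5 lie apart at 23192 and 19415 CPM of miR-219a-2-3p with the lowest miR-338-3p, and BYHWD 2 has the highest miR-338-3p at 848 CPM.

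How the members varied together was examined over the 13 libraries without sham 4 and sham 5, for 10 pairs on log2 CPM. The libraries share their scaling, and the p-values are from permutation tests adjusted over the 10 pairs. MiR-219a-5p followed miR-338-3p, which is encoded on another chromosome, with Pearson's r of 0.75 (permutation p = 0.00897, adjusted 0.0299) and Spearman's rho of 0.82 (permutation p = 0.00118, adjusted 0.0118). The r was 0.74 without the 2 libraries farthest from the median of miR-219a-5p, and 0.73 with group means removed. It was not particular to this pair, as miR-16-1-3p had an r of 0.78 with miR-219a-5p and 0.77 with miR-338-3p over the same libraries. The arms of miR-338 had an r of 0.85 (permutation p = 0.00553, adjusted 0.0299) and a rho of 0.54 (permutation p = 0.0586, adjusted 0.176). Their r was 0.85 with group means removed, but 0.30 without BYHWD 2 and ICH 2, so its size depended on these libraries. MiR-219a-2-3p had an r of 0.71 with miR-219a-1-3p (permutation p = 0.00661, adjusted 0.0299, with a rho of 0.58 and adjusted 0.176). This r was 0.64 with group means removed and 0.40 without sham 1 and sham 2. With miR-219a-5p the r of miR-219a-2-3p was 0.49 (permutation p = 0.0919, adjusted 0.184), and with miR-338-3p it was 0.17 (permutation p = 0.546, adjusted 0.732).

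Among the 286 other miRNAs averaging 50 CPM or more, those most like each member were found by Pearson's r of log2 CPM, given as a description. Over the 13 libraries, miR-338-3p was most like miR-16-1-3p (0.77), miR-142a-5p (0.70) and miR-126a-5p (0.69). MiR-338-5p was most like miR-126a-5p (0.72), let-7f-2-3p (0.71) and miR-374b-5p (0.68). MiR-219a-5p was most like miR-16-1-3p (0.78), miR-203-3p (0.78) and the leukocyte miRNA miR-142a-5p (0.71). For miR-219a-1-3p these were miR-532-5p (0.89), miR-99b-3p (0.82) and miR-140-3p (0.81), and for miR-219a-2-3p they were miR-151-3p (0.92), miR-99b-3p (0.90) and let-7f-5p (0.88). Over all 15 libraries miR-219a-2-3p was most like miR-320-3p (0.95), miR-140-3p (0.94) and miR-101c (0.93). Over the 13 libraries these had 0.74, 0.78 and 0.49, so the likeness to miR-101c depended most on sham 4 and sham 5.

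Other miRNAs with known roles in the oligodendrocyte lineage gave no calls. Of 11 listed and tested, none passed in any of the 3 comparisons, and the median log2 fold change was 0.15 for ICH against sham, 0.19 for BYHWD against sham and -0.03 for BYHWD against ICH. MiR-138-5p, which is induced with miR-219 and miR-338 in maturing oligodendrocytes and is also a neuronal miRNA, had -0.23 (SE 0.26) for ICH against sham. MiR-23a-3p, which represses lamin B1, had 0.32 (SE 0.16), and miR-32-5p had 0.42 (SE 0.19). On the side of the precursors, miR-17-5p and miR-19b-3p of the miR-17-92 cluster had 0.30 (SE 0.15) and -1.05 (SE 0.45), and miR-27a-3p had 0.38 (SE 0.14). The edgeR adjusted p was 0.139 to 0.654 for these 6. MiR-19b-3p varied widely in sham (123 ± 105 CPM, SD, n = 5) and had 0.33 (SE 0.18) without sham 4 and sham 5, the opposite direction, while miR-138-5p had -0.46 (SE 0.26), miR-23a-3p 0.14 (SE 0.16), miR-32-5p 0.18 (SE 0.19) and miR-27a-3p 0.22 (SE 0.13). Of the other 5, miR-7a-5p had -0.59 for ICH against sham, 0.36 for BYHWD against sham and 0.94 for BYHWD against ICH (SE 0.36 each, edgeR adjusted p = 0.916 for the last). MiR-9-5p, miR-125a-3p, miR-212-3p and miR-145a-5p had 0.01 to 0.35 for ICH against sham and -0.12 to 0.46 for BYHWD against sham.

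Marker miRNAs of other cells were called only in the microglial and leukocyte list and the fibroblast list, and only against sham. The summed level of 5 microglial and leukocyte miRNAs was 356 to 814 CPM in BYHWD and 532 to 739 CPM in ICH, against 304 to 425 CPM in sham. Among them miR-155-5p and miR-142a-3p were called in both comparisons with sham, and none of the 5 was at 0 in any library. MiR-142a-5p, miR-223-3p and miR-150-5p were not called in either. In ICH and BYHWD against sham, miR-142a-5p had log2 fold changes of 1.19 and 0.92, and miR-223-3p had 1.69 and 1.58. MiR-150-5p had 0.12 and 0.0069 (SE 0.17 each), so the list did not rise as a whole. The summed level of 3 fibroblast miRNAs was 241 to 498 CPM in BYHWD and 175 to 480 CPM in ICH, against 141 to 218 CPM in sham. Of the fibroblast miRNAs, 1 was called higher, in BYHWD against sham. The part of these cells in the differences of miR-338-3p and miR-219a-5p from sham was not tested. The 7 neuronal miRNAs summed to 27960 to 46408 CPM in BYHWD and 33446 to 47620 CPM in ICH, against 30639 to 51639 CPM in sham, and none was called. In the erythroid, the endothelial and mural, and the choroid plexus and epithelial lists none was called in any comparison either.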

How the data were processed

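Small RNA libraries from 15 mouse brains (5 BYHWD, 5 ICH, 5 sham) were analysed as deposited, in tables of whole-number read counts per mature miRNA that the authors had not normalized. Per the submitters' processing notes, cutadapt, Bowtie and edgeR were used and hg38, a human build, is named, although the names are mouse miRNA names. Versions, and the treatment of reads with several loci, are not given in the sources used here. In 15 of 15 tables the first value was the library number, with 929 values for 928 names, so each count was assigned to the name 1 row above. Row pairs that repeat a name (mean count of at least 50) differed by under 0.1 log2 units in 89.5% of cases after this move and in 62.4% before it. The highest-total row was kept for the 76 names on several rows, which kept 66.6 to 74.8% of counts.

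Counts were tested with edgeR 4.0.16 in R 4.3.3 (TMM, filterByExpr, robust quasi-likelihood F-test, all libraries in 1 fit, Benjamini-Hochberg over 652 miRNAs). SE was the fold change over the square root of F. The fit was tested on simulated counts. CPM was computed with TMM scaling from the moved counts, with 1 row per name, after the filter on low counts. Log2 CPM used a prior count of 2, and ratios a pseudocount of 0.5. Sequences were matched by name to RefSeq. Alternatives used DESeq2 1.42.0 and limma 3.58.1 (voom), other scalings and filters, all rows, the groups compared alone, and left-out libraries. All 5 members were named, with listed lineage and marker miRNAs, and the closest miRNAs by correlation. Members, lists and the libraries left out were chosen with earlier results of these data known.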

Additional observations from a re-analysis of the deposited data

Results flagged for a closer look

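Of 27 sets of 5 libraries examined (each member's CPM and each log2 ratio in each group), 4 held 1 library whose gap to the next was more than 0.71 of the group's range. Chance gives about 1 in 20 such sets if the values are normal and the sets separate. These sets share libraries and members, so the 4 flags are not separate. BYHWD 2 had 271 CPM of miR-219a-5p, against 141 to 157 CPM in the other BYHWD libraries, and 848 CPM of miR-338-3p, against 537 to 580 CPM. Its log2 ratio of miR-219a-2-3p to miR-219a-5p was 4.86, against 5.61 to 5.84 in the others. In this library miR-219a-5p, miR-338-5p and miR-338-3p ranked 18, 27 and 30 from the top of 652 miRNAs by their excess over the median of all libraries, while miR-219a-2-3p ranked 420. ICH 2 had 260 CPM of miR-219a-5p, against 171 to 193 CPM in the other ICH libraries. No sham set met this criterion, which looks for 1 library apart. It can miss a pair that lies apart together, as sham 4 and sham 5 do for miR-219a-2-3p.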

How the results depend on the processing

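No member passed in any comparison under any of the 27 alternatives (381 values, lowest edgeR adjusted p = 0.0638, for miR-219a-2-3p in BYHWD against sham without sham 1), and 367 of the values kept their direction. Without sham 4 and sham 5, miR-219a-2-3p turned to 0.30 for ICH against sham and to 0.14 for BYHWD against sham, as did the log2 ratio of miR-219a-2-3p to miR-338-3p for ICH against sham (0.17) and that of miR-338-5p to miR-338-3p for BYHWD against sham (0.0077). The cause was not tested. For BYHWD against ICH, values near 0 turned: miR-219a-1-3p was -0.064 and miR-338-3p -0.0088 with upper-quartile scaling, and miR-219a-1-3p was -0.0027 without the filter on low counts. With single libraries left out, miR-219a-1-3p was -0.10 to 0.12 and miR-338-3p -0.071 to 0.12. The ratio of miR-219a-2-3p to miR-219a-5p was then -0.094 to 0.20 for BYHWD against ICH, -1.14 to -0.56 for ICH against sham and -1.11 to -0.53 for BYHWD against sham, and that of miR-219a-1-3p to miR-219a-5p was -0.26 to 0.21 for BYHWD against sham.

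The number of miRNAs called over the whole table changed with the processing in both comparisons with sham. For ICH against sham it was 5, and 10 with upper-quartile scaling, 9 with total counts and 48 with DESeq2. It was 4 to 31 with single libraries left out, highest without sham 3, with 12 without sham 2 and 11 without ICH 4. For BYHWD against sham it was 15, and 52 with DESeq2, 6 with limma-voom, 23 with all rows as deposited, 9 with the 2 groups alone, and 7 without sham 4 and sham 5. Single libraries gave 2 to 54, lowest without sham 4 and highest without sham 3, with 44 without sham 1, 3 without BYHWD 5, 5 without sham 5, 8 without BYHWD 2 and 9 without BYHWD 4. For BYHWD against ICH it was 0 in every setting (31 at an unadjusted p under 0.05 in edgeR, 29 in DESeq2 and 44 in limma-voom).

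Replicate numbers are shared between groups, but only 3 of 15 same-numbered pairs had deviations that correlated above 0.1 (-0.43 to 0.22), and 2 of 15 libraries correlated best with their own number, so the numbers were not taken to pair the mice. With the replicate block, 9 miRNAs were called for BYHWD against sham. At 12 to 42 counts per library, depth limits miR-219a-1-3p.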
